A study of Mus musculus with 8 samples.

Results

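The genes described here are the 33 genes of skin barrier lipid and ceramide synthesis chosen by symbol. Each was found once by its gene name in a table of 32574 mouse genes, and all 33 passed the filter on low values that left 18140 tested genes. They cover fatty acid elongation and activation, sphingoid base synthesis, the ceramide synthases, ceramide desaturation and hydroxylation, the acylceramide steps, oxidation of the bound lipid, glucosylation and transport, sphingomyelin turnover, and ceramide breakdown. Their transcripts were counted by bulk RNA-seq of 8 samples of flow-sorted epithelial cells of mouse skin epidermis, 1 library each, in a study that asked what lies behind clonal expansion and tissue fluidity in skin repair. There were 4 groups of 2 libraries: Lrig1 ablation, Lrig1 control, K14 ablation and K14 control. All 4 ablation libraries carry the genotype label of a basal lineage ablation and all 4 control libraries the label WT, with the same tissue and cell type label in every group. Keratin 14 (K14) is made by basal keratinocytes, and Lrig1 is a marker of stem cells in the upper part of the hair follicle. What the names K14 and Lrig1 stand for in these groups (a Cre driver, a sort gate or the lineage removed) is not stated in the labels, nor are age, sex, the time after ablation, or whether libraries of 1 group came from separate animals. P-values therefore measure only the spread between these libraries, which may be technical.

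The outer barrier of the skin is a stack of dead, flattened keratinocytes embedded in sheets of ceramides, cholesterol and free fatty acids. Keratinocytes of the granular layer make these lipids, pack glucosylated ceramides and sphingomyelin into lamellar granules, and release them as they die. The ceramides that are particular to skin carry an ultra-long fatty acid, hydroxylated at its far end and esterified with linoleic acid; oxidation of that linoleate precedes the attachment of the lipid to the protein envelope of the dead cell. Inherited loss of several of these enzymes in humans, among them those encoded by ABCA12, ALOX12B, ALOXE3, PNPLA1, CERS3 and SDR9C7, causes ichthyosis.

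Each library held 6458636 to 11654135 recovered reads, and 3 reads corresponded to a normalised read count of 2.12 to 4.23. None of 6 epithelial markers was at 0 in any library, which at this depth does not show the purity of the sort. Their sum was 126046 normalised read counts in the second Lrig1 ablation library and 206738 to 240684 in the other libraries. Sums over 8 basal keratinocyte markers were 91500 to 216615 normalised read counts and sums over 18 suprabasal and granular markers 47162 to 167070, so that the sorted cells held RNA of both. The libraries of a control group were close to each other and those of an ablation group were not: the chi-square per gene between the libraries of a group, which is about 1 for sampling noise alone, was 39.5 for Lrig1 ablation, 2.58 for Lrig1 control, 27.7 for K14 ablation and 1.57 for K14 control. Mitochondrial genes took 6.29% and 6.89% of reads in the Lrig1 control libraries and 2.34% to 4.14% in the other 6 libraries. Lrig1 itself averaged 2655 ± 1302 normalised read counts in the Lrig1 ablation libraries and 4103 ± 128 in the Lrig1 control libraries, against 922 ± 798 in the K14 ablation libraries and 620.3 ± 50.0 in the K14 control libraries (SD, n = 2 each).

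Among the comparisons of these genes, the one with the most calls was Lrig1 ablation against Lrig1 control, in which 15 of the 33 genes were lower. The 6 of them with the smallest adjusted p were picked by this call, so their shared direction follows from the choice. Their promoters are shown here. Each is the 250 bases before the RefSeq start on GRCm38.p6, read 5′ to 3′ on the strand of the gene; the windows are at chr9:83806306-83806555, minus strand (Elovl4), chr13:108214154-108214403, plus strand (Elovl7), chr10:127898285-127898534, plus strand (Sdr9c7), chr17:56982127-56982376, minus strand (Acer1), chr17:28858161-28858410, plus strand (Pnpla1) and chr11:69156822-69157071, plus strand (Alox12b). Capitals mark matches to GCCNNNGGC, the AP-2 motif.
Elovl4: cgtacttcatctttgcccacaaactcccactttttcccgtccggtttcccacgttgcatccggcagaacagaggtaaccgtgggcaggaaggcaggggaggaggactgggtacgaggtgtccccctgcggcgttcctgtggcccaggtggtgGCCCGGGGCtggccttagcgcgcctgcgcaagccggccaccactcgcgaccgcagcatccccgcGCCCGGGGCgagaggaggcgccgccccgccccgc
Elovl7: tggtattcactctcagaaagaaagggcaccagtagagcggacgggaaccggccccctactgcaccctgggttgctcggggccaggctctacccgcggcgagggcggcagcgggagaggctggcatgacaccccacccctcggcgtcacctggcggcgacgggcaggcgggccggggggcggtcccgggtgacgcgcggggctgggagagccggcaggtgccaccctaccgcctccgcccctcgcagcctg
Sdr9c7: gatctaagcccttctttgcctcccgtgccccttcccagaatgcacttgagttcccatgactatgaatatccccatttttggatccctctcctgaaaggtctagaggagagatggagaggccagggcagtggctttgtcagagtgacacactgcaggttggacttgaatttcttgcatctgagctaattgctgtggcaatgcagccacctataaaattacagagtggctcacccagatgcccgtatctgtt
Acer1: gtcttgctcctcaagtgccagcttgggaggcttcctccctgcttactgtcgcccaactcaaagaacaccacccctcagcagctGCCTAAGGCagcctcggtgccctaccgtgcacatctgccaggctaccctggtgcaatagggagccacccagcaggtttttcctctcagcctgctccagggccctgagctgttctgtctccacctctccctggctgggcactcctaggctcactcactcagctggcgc
Pnpla1: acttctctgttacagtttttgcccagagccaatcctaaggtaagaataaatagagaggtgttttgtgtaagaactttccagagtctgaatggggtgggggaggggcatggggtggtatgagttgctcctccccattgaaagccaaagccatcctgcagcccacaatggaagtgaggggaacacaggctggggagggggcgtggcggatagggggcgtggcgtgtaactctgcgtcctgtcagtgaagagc
Alox12b: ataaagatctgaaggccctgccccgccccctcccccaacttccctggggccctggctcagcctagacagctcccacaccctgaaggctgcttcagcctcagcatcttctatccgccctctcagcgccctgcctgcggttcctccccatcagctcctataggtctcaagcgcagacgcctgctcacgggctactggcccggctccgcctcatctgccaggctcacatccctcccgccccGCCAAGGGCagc
Windows for 29 of the 33 genes were in the RefSeq table, 39 windows in all. Both strands were searched for TGANTCA (AP-1), AACCGGTT (grainyhead-like factors) and GCCNNNGGC (AP-2), with overlapping matches counted. The AP-2 motif was in 8 of the 39 windows, in 6 genes, and in 13.7% of all 32851 mouse windows of that length. It lay in Elovl4, with matches starting 98 and 34 bases before the start, in Acer1 at 167 bases, in Alox12b at 12 bases, and also in Ugcg, Degs2 and Sgms2. Over genes with 1 listed start, the median GC content was 64.8% for genes lower in Lrig1 ablation and 61.6% for the others of the 33. It was 52% over all mouse genes with 1 listed start. The part of GC content in the matches was not tested. Elovl7, Sdr9c7 and Pnpla1 had no match to any of the 3 motifs. The AP-1 motif was in the windows of Asah2, Sgms1 and Sgms2 and in 6.75% of all windows, and the grainyhead-like motif in that of Sgms1 and in 0.116% of all windows. A match describes the letters of the window and not a bound site.

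Among themselves the 33 genes spanned a wide range of levels. Per kb of exon, Degs1, the desaturase that turns dihydroceramide into ceramide, had the highest mean over the 8 libraries, at 907 normalised read counts per kb. It led in each of the 4 groups. Elovl4, Sptlc3 and Sgpl1 followed, at 447, 251 and 201 normalised read counts per kb over all libraries, but their order differed between groups. Sgpl1 was second in Lrig1 ablation (188 per kb) and had 334 per kb in Lrig1 control, 147 per kb in K14 ablation and 133 per kb in K14 control, where Elovl6 (243) and Elovl7 (156) were among the genes above it. At the low end were Smpd3, a neutral sphingomyelinase, at 3.22, and Degs2, which hydroxylates dihydroceramide to phytoceramide, at 6.50 normalised read counts per kb. Within the groups of enzymes with overlapping activity, Elovl4 led the elongases and Sptlc3 the subunits of serine palmitoyltransferase, and Sgms1 lay above Sgms2 (72.3 against 28.4 per kb over all libraries). Among the ceramide synthases Cers3 (108), Cers4 (105) and Cers5 (99.4) were close over all libraries, and each led in a different group or groups: Cers3 had 60.4, 178, 108 and 85.3 per kb in Lrig1 ablation, Lrig1 control, K14 ablation and K14 control, where Cers4 had 67.2, 108, 95.7 and 151 and Cers5 96.2, 80.8, 111 and 109.7. Cers3 thus led in Lrig1 control, Cers4 in K14 control and Cers5 in both ablation groups.

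**Figure D1:**
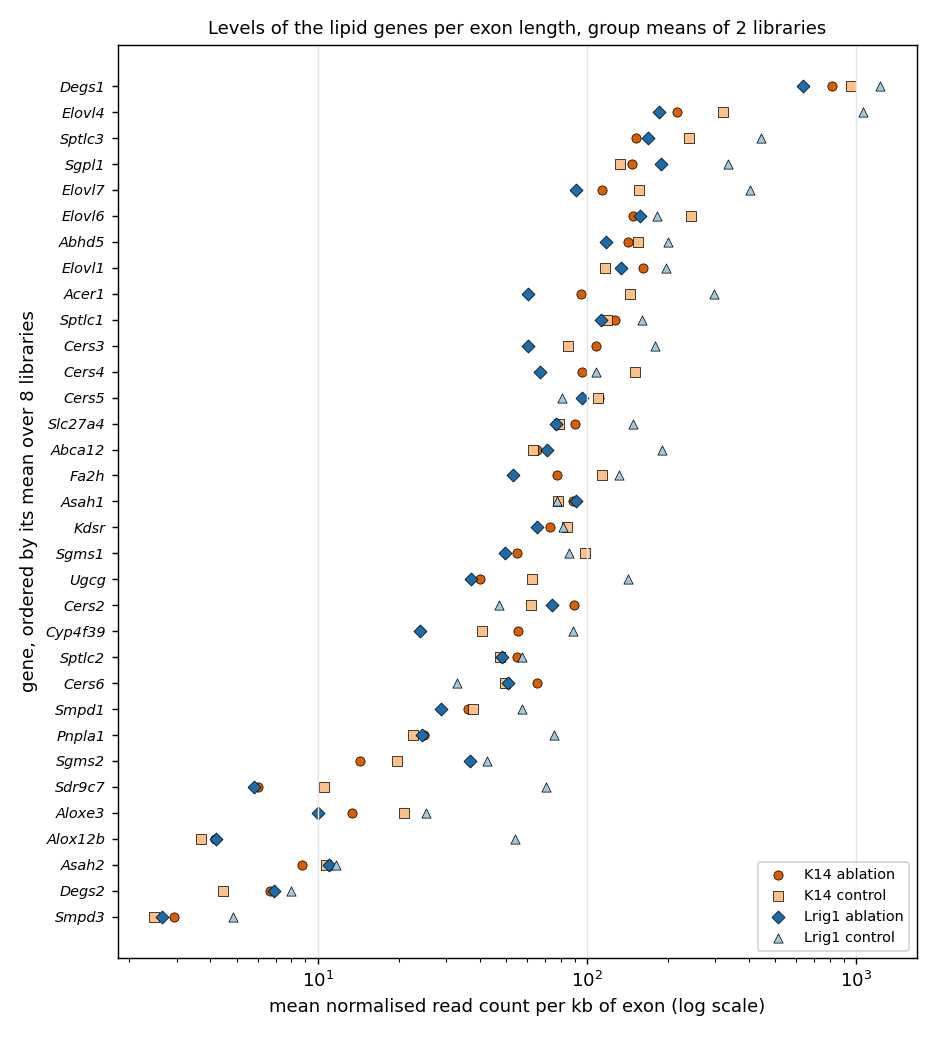
Mean normalised read count per kb of exon (log scale, means of 2 libraries) of each gene in the 4 groups, ordered by the mean over all 8 libraries. Degs1 is at the top with a mean of 907 and Smpd3 at the bottom with 3.22; the Lrig1 control mean lies to the right of the other groups for most genes and to the left for Cers2, Cers5, Cers6 and Asah1.

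Set side by side, the 8 libraries show 1 dominant feature. In 19 of the 33 genes both Lrig1 control libraries were above all 6 other libraries, where this held for 15.3% of all tested genes; in 3, namely Cers2, Cers5 and Cers6, both were below all 6 others, where this held for 10.2% of all tested genes. Summed over the 33 genes, the normalised read counts were 13233 and 13154 for Lrig1 ablation and 26656 and 27034 for Lrig1 control, against 13882 and 15656 in the K14 ablation libraries and 17429.5 and 17520.3 in the K14 control libraries. The 2 ablation groups and K14 control thus lay between 13154 and 17520, and Lrig1 control stood apart above them.

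**Figure D2:**
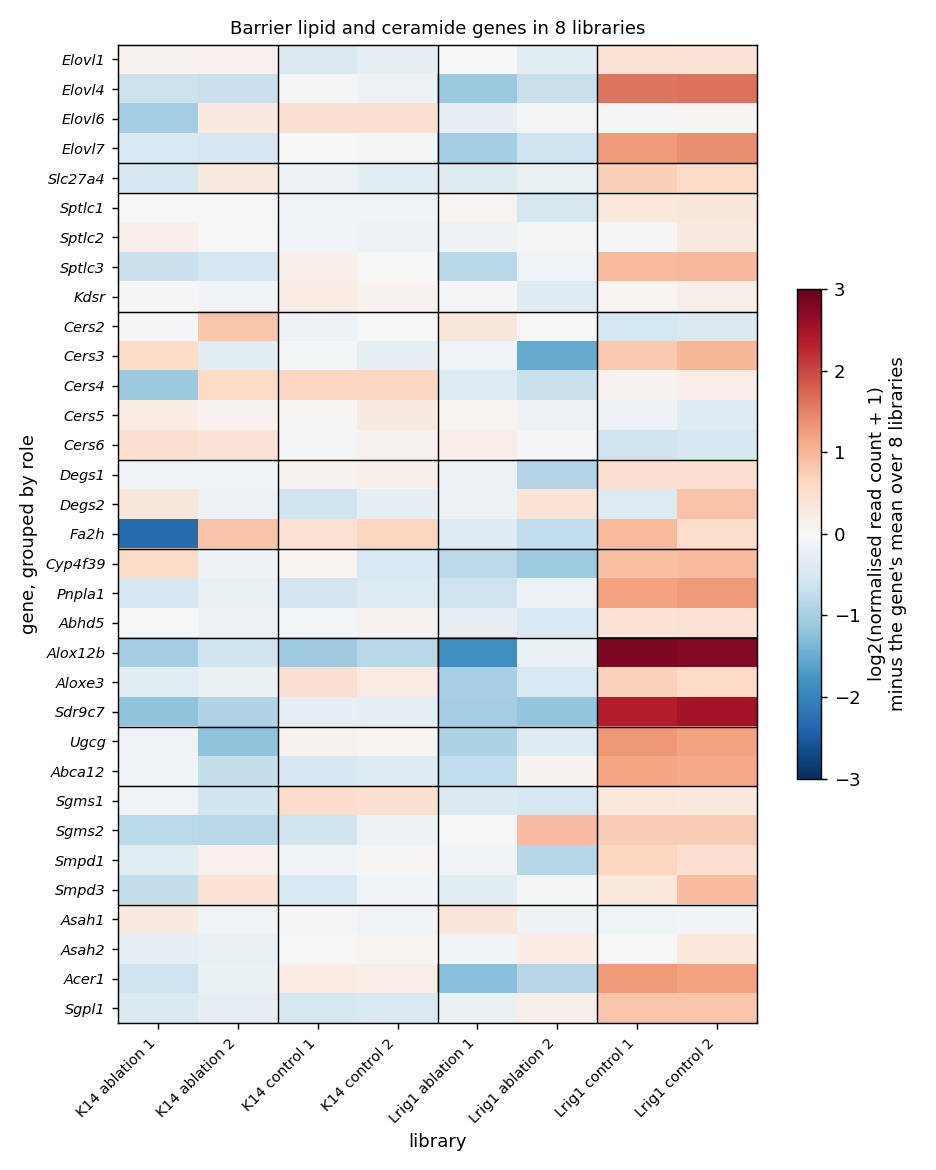
Each row is 1 of the 33 genes, grouped by role, and each column 1 library; colour gives log2(normalised read count + 1) minus the mean of the gene over the 8 libraries. The 2 Lrig1 control columns are red in most rows, most deeply for Alox12b and Sdr9c7, and blue for Cers2, Cers5 and Cers6; the 2 K14 ablation columns differ from each other in Elovl6, Cers4 and Fa2h.

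Lrig1 ablation was first set against Lrig1 control. Of the 33 genes, 15 were lower and 0 higher in the ablation libraries at an adjusted p under 0.05 (limma, Benjamini-Hochberg over all tested genes). Of all tested genes 4.06% passed, 3.3% lower and 0.766% higher. The median log2 difference was -0.84 over the 33 genes and -0.02 over all tested genes. At an unadjusted p under 0.05, 20 of the 33 were lower and 1 higher, against 12.1% lower and 7.99% higher over all tested genes. Both ablation libraries lay below both control libraries for 26 of the 33, above them for 3 (Cers2, Cers5 and Cers6), and overlapped them for 4; over all tested genes 26.4% lay below and 21.4% above. A fit of only the compared groups called 7 of the 33, all lower, so the count of 15 rests partly on the spread shared by all 4 groups. Fewer genes were also called without any 1 of the control libraries. Among these are the K14 controls, which enter this comparison only through the spread. None of the 15 turned its sign under any alternative. The difference of Alox12b was -2.97 without the first Lrig1 ablation library and -4.60 without the second, and that of Degs1 was -0.64 without the second. Markers of differentiated keratinocytes moved with these genes: 12 of 18 suprabasal and granular markers were lower, with a median log2 difference of -2.03, and their summed level was 47661 and 47162 in the Lrig1 ablation libraries against 151354 and 167070.0 in the Lrig1 control libraries, with none of the 18 at 0 in any library. Fewer differentiated cells in the sort and less RNA per cell cannot be told apart in bulk samples.

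**Figure D3:**
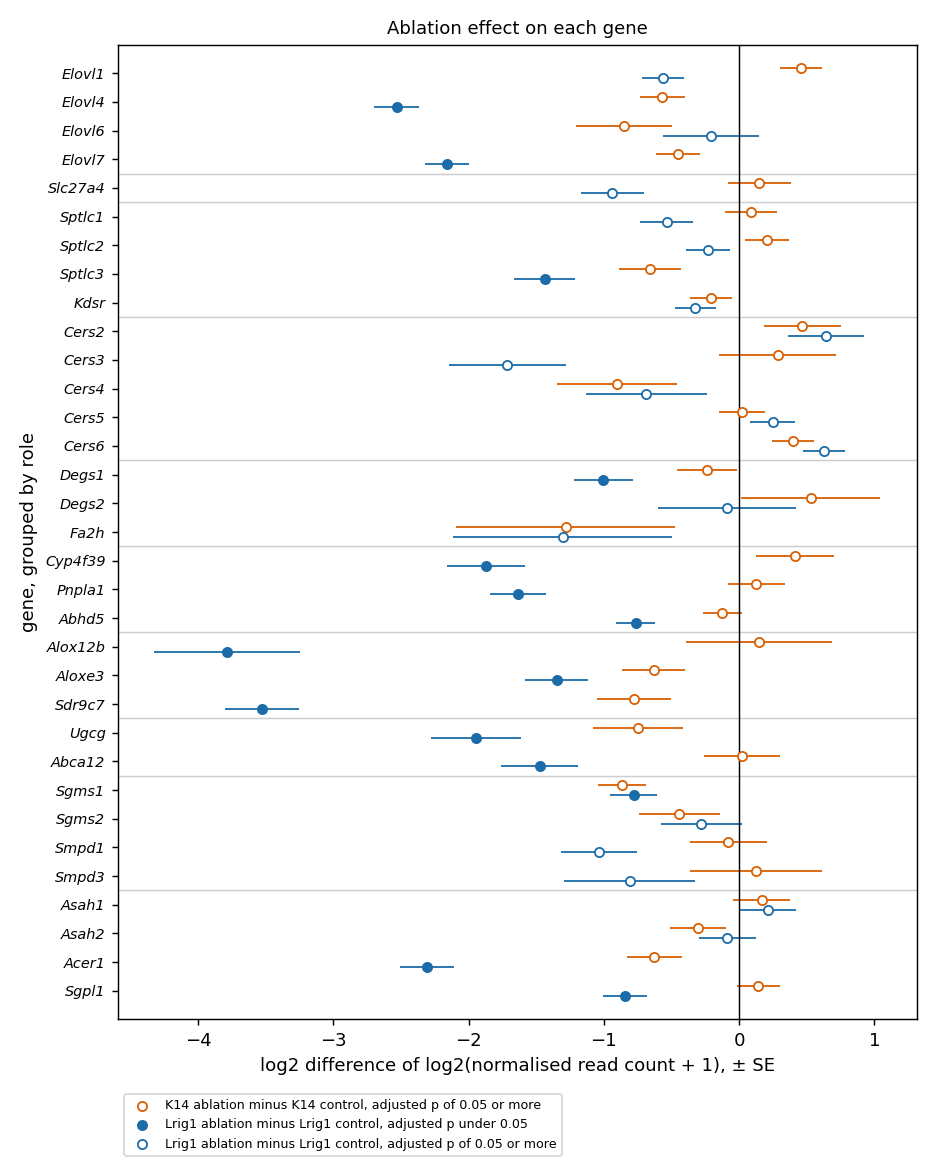
Log2 difference (of log2(normalised read count + 1), ± SE) of each gene for K14 ablation minus K14 control (orange) and Lrig1 ablation minus Lrig1 control (blue), with genes grouped by role; filled points have an adjusted p under 0.05. The 15 filled points are all blue and all left of 0, from Alox12b at -3.78 to Abhd5 at -0.77.

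Of the 4 fatty acid elongases, 2 were lower in Lrig1 ablation. Elovl4 (GRCm38 chromosome 9, 83778692 to 83806277, minus strand), which makes the ultra-long fatty acids of skin ceramides, had 478 and 646 in the Lrig1 ablation libraries, against 3162 and 3272 in the Lrig1 control libraries (log2 difference -2.53 ± 0.17, adjusted p = 0.00103). The 2 groups were far apart, and the control libraries differed by less than the ablation libraries. Elovl4 had 658 and 654 in the K14 ablation libraries, against 1017 and 929 in the K14 control libraries (log2 difference -0.57 ± 0.17, adjusted p = 0.248). Elovl7, which elongates long saturated fatty acids, had 316 and 415 in the Lrig1 ablation libraries, against 1553 and 1689 in the Lrig1 control libraries (log2 difference -2.16 ± 0.16, adjusted p = 0.00159). It had 465 and 451 in the K14 ablation libraries, against 633 and 620.3 in the K14 control libraries (log2 difference -0.45 ± 0.16, adjusted p = 0.322). The ablation libraries of both kinds were thus below both kinds of control for both genes, but the K14 difference was smaller and did not pass. The error of each difference comes from the spread of all 4 groups and not of the K14 libraries alone. Elovl1, which elongates saturated very long chains, had 403 and 328 in the Lrig1 ablation libraries, against 541 and 536 in the Lrig1 control libraries (log2 difference -0.57 ± 0.16, adjusted p = 0.088). It had 436 and 443 in the K14 ablation libraries, against 302 and 338 in the K14 control libraries (log2 difference 0.46 ± 0.16, adjusted p = 0.299), so it lay below its control in one comparison and above it in the other, and neither passed. Elovl6, which elongates palmitate to stearate, had 952 and 1078 in Lrig1 ablation and 1161 and 1174 in Lrig1 control, the smallest Lrig1 difference of the 4 elongases at -0.20 ± 0.35.

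Slc27a4, a fatty acid transport protein with acyl-CoA synthetase activity that is needed for the barrier in mouse skin, lay just outside the threshold, with 324 and 357 in the Lrig1 ablation libraries, against 683 and 622 in the Lrig1 control libraries (log2 difference -0.94 ± 0.23, adjusted p = 0.0674). It had 299 and 499 in the K14 ablation libraries, against 369 and 328 in the K14 control libraries (log2 difference 0.15 ± 0.23, adjusted p = 0.825), where the groups overlapped. Among the 4 genes of sphingoid base synthesis, which begins with serine palmitoyltransferase and Kdsr, the reductase that follows it, Sptlc3 was lower. Sptlc3 encodes a catalytic subunit and had 360.3 and 600.2 in the Lrig1 ablation libraries, against 1254 and 1270.1 in the Lrig1 control libraries (log2 difference -1.44 ± 0.23, adjusted p = 0.0157). It had 407 and 457 in the K14 ablation libraries, against 711 and 652 in the K14 control libraries (log2 difference -0.66 ± 0.23, adjusted p = 0.309). The K14 ablation libraries were below both controls as well, by less than the Lrig1 ones. The other subunits and Kdsr had log2 differences of -0.54 ± 0.19 (Sptlc1), -0.32 ± 0.15 (Kdsr) and -0.23 ± 0.16 (Sptlc2) in Lrig1 ablation, none of which passed.

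None of the 5 ceramide synthases, which join the fatty acid to the sphingoid base, passed the threshold, and they did not lie on 1 side. Cers3, the enzyme for ultra-long chains, had 284 and 109 in the Lrig1 ablation libraries, against 538 and 624 in the Lrig1 control libraries (log2 difference -1.71 ± 0.43, adjusted p = 0.0702). Both ablation libraries were below both controls, but they differed by more than 2 times from each other. Cers3 had 456 and 249.8 in the K14 ablation libraries, against 299.6 and 256 in the K14 control libraries (log2 difference 0.29 ± 0.43, adjusted p = 0.82). The groups overlapped there. Cers6, which uses palmitoyl chains, was the gene nearest the threshold from outside, in the other direction, with 496 and 412 in the Lrig1 ablation libraries, against 277 and 307 in the Lrig1 control libraries (log2 difference 0.63 ± 0.16, adjusted p = 0.0665). Cers2, for very long chains, and Cers5, also for palmitoyl chains, were above their control by 0.64 ± 0.28 and 0.25 ± 0.17 on the log2 scale, with adjusted p = 0.254 and 0.463. Cers4 lay -0.69 ± 0.44 from its control (adjusted p = 0.443). The mean level of Cers3 was 60.4 normalised read counts per kb in Lrig1 ablation and 178 in Lrig1 control, and that of Cers6 51.1 in Lrig1 ablation and 32.9 in Lrig1 control.

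Degs1 was the 1 of 3 desaturation and hydroxylation genes that was lower, with 2044 and 1233 in the Lrig1 ablation libraries, against 3177 and 3189 in the Lrig1 control libraries (log2 difference -1.003 ± 0.22, adjusted p = 0.0474). The second ablation library was well below the first, and the call was lost in 12 of 18 alternative analyses. Degs1 had 2117 and 2088 in the K14 ablation libraries, against 2437 and 2519 in the K14 control libraries (log2 difference -0.24 ± 0.22, adjusted p = 0.685). Fa2h, which hydroxylates the fatty acid next to its carboxyl group, had 179 and 140.1 in Lrig1 ablation against 455 and 339.7 in Lrig1 control, with a log2 difference of -1.31 ± 0.81; the error is shared by all 4 groups of the fit, and the K14 ablation libraries lay far apart for this gene. Degs2 had 14.2 and 21.5 normalised read counts in the Lrig1 ablation libraries, against 11.6 and 29.6 in the Lrig1 control libraries (log2 difference -0.09 ± 0.51). These were 16 and 27 reads in the ablation libraries and 10 and 21 in the control libraries, too few to show a difference at this depth.

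All 3 genes of omega-hydroxylation and acylceramide synthesis were lower in Lrig1 ablation. Pnpla1, the transacylase that esterifies omega-hydroxyceramide with linoleate, had 100.3 and 136 in the Lrig1 ablation libraries, against 355 and 375 in the Lrig1 control libraries (log2 difference -1.63 ± 0.21, adjusted p = 0.00852). It had 109 and 131 in the K14 ablation libraries, against 104 and 115 in the K14 control libraries (log2 difference 0.13 ± 0.21, adjusted p = 0.835), so that the 2 K14 groups overlapped at the level of Lrig1 ablation. Cyp4f39, the mouse counterpart of the human omega-hydroxylase CYP4F22, had 76.3 and 61.3 in the Lrig1 ablation libraries, against 248 and 258 in the Lrig1 control libraries (log2 difference -1.87 ± 0.29, adjusted p = 0.0153). It had 199 and 119 in the K14 ablation libraries, against 137 and 96.5 in the K14 control libraries (log2 difference 0.42 ± 0.29, adjusted p = 0.582). Here too the K14 groups overlapped. Abhd5, which supplies linoleate from triglyceride to the acylceramide step together with Pnpla1, had 753 and 654 in the Lrig1 ablation libraries, against 1170.0 and 1217 in the Lrig1 control libraries (log2 difference -0.77 ± 0.14, adjusted p = 0.0286). It had 889 and 801 in the K14 ablation libraries, against 872 and 968 in the K14 control libraries (log2 difference -0.12 ± 0.14, adjusted p = 0.755). Abhd5 showed the smallest difference of the 15 genes called, and its call was lost in 7 of 18 alternative analyses.

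All 3 genes that oxidise the linoleate of acylceramide were also lower in Lrig1 ablation, and 2 of them had the largest differences of the 33. Alox12b, the first lipoxygenase of this step, had 4.44 and 15.9 in the Lrig1 ablation libraries, against 133 and 129.7 in the Lrig1 control libraries (log2 difference -3.78 ± 0.54, adjusted p = 0.0126). These were 5 and 20 reads in the ablation libraries and 114 and 92 reads in the control libraries. Alox12b had 8.49 and 11.8 in the K14 ablation libraries, against 8.12 and 9.85 in the K14 control libraries (log2 difference 0.15 ± 0.54, adjusted p = 0.931), which were 12 and 11 reads in K14 ablation and 8 and 10 in K14 control. It was thus covered by few reads in each library except the 2 of Lrig1 control. Sdr9c7, the dehydrogenase that follows the lipoxygenases, had 18.6 and 16.7 in the Lrig1 ablation libraries, against 204 and 226 in the Lrig1 control libraries (log2 difference -3.53 ± 0.27, adjusted p = 0.00177). It had 16.3 and 20.4 in the K14 ablation libraries, against 32.5 and 31.5 in the K14 control libraries (log2 difference -0.78 ± 0.27, adjusted p = 0.316). Again 6 libraries were low and 2 high, and the K14 ablation libraries were below both K14 controls. Aloxe3, the second lipoxygenase, had 52.4 and 75.6 in the Lrig1 ablation libraries, against 168 and 156 in the Lrig1 control libraries (log2 difference -1.35 ± 0.24, adjusted p = 0.0229). It had 81.4 and 90.1 in the K14 ablation libraries, against 144 and 123 in the K14 control libraries (log2 difference -0.63 ± 0.24, adjusted p = 0.333). In this gene K14 control was close to Lrig1 control, unlike in Alox12b and Sdr9c7.

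Both genes of glucosylation and lamellar granule loading were lower in Lrig1 ablation. Ugcg, which glucosylates ceramide, had 159 and 229 in the Lrig1 ablation libraries, against 761 and 716 in the Lrig1 control libraries (log2 difference -1.95 ± 0.33, adjusted p = 0.0216). It had 284 and 132 in the K14 ablation libraries, against 331 and 322 in the K14 control libraries (log2 difference -0.75 ± 0.33, adjusted p = 0.398), and the 2 K14 ablation libraries differed by more than 2 times. Abca12, the transporter that loads glucosylceramide into lamellar granules, had 755 and 1356 in the Lrig1 ablation libraries, against 2875 and 2756 in the Lrig1 control libraries (log2 difference -1.48 ± 0.28, adjusted p = 0.0313). It had 1159.6 and 771 in the K14 ablation libraries, against 908 and 956 in the K14 control libraries (log2 difference 0.02 ± 0.28, adjusted p = 0.983). Both Lrig1 control libraries were above the other 6 for Abca12.

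Of the 4 sphingomyelin genes, Sgms1, a sphingomyelin synthase, was lower, as the member just inside the threshold, with 539.6 and 511 in the Lrig1 ablation libraries, against 913 and 892 in the Lrig1 control libraries (log2 difference -0.78 ± 0.17, adjusted p = 0.04996). It had 676 and 481 in the K14 ablation libraries, against 1063 and 1019 in the K14 control libraries (log2 difference -0.87 ± 0.17, adjusted p = 0.139). Sgms1 thus lay below its control by a similar amount in both comparisons and had the smallest adjusted p of the 33 in the K14 one, where it did not pass. The call in Lrig1 ablation was lost in 12 of 18 alternative analyses. Sgms2, the other synthase, had 159 and 299 in Lrig1 ablation and 263 and 266 in Lrig1 control, which overlapped, against 90.6 and 87.9 in K14 ablation and 104 and 143 in K14 control. Smpd1, the acid sphingomyelinase that releases ceramide in the outer epidermis, lay -1.04 ± 0.28 from its Lrig1 control on the log2 scale (adjusted p = 0.0857). Smpd3 had 12.4 and 15.1 normalised read counts in the Lrig1 ablation libraries, against 19.8 and 31.0 in the Lrig1 control libraries (log2 difference -0.81 ± 0.49, adjusted p = 0.405). Both ablation libraries were below both controls, but these were only 14 and 19 reads in the ablation libraries and 17 and 22 in the control libraries.

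Of the 4 genes of ceramide and sphingosine breakdown, 2 were lower. Acer1, an alkaline ceramidase of differentiating keratinocytes, had 125 and 168 in the Lrig1 ablation libraries, against 742 and 702 in the Lrig1 control libraries (log2 difference -2.31 ± 0.20, adjusted p = 0.00207). It had 198 and 263 in the K14 ablation libraries, against 356 and 349 in the K14 control libraries (log2 difference -0.63 ± 0.20, adjusted p = 0.279). Sgpl1, the lyase that degrades sphingosine phosphate, had 1003 and 1305 in the Lrig1 ablation libraries, against 2049 and 2059 in the Lrig1 control libraries (log2 difference -0.84 ± 0.16, adjusted p = 0.0303). It had 851 and 959 in the K14 ablation libraries, against 797 and 839.8 in the K14 control libraries (log2 difference 0.14 ± 0.16, adjusted p = 0.744). The 6 libraries other than Lrig1 control lay between 797 and 1305 counts. The acid ceramidase gene Asah1 and the neutral ceramidase gene Asah2 differed from their Lrig1 control by 0.21 ± 0.21 and -0.09 ± 0.21 on the log2 scale, with overlapping groups.

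**Figure D4:**
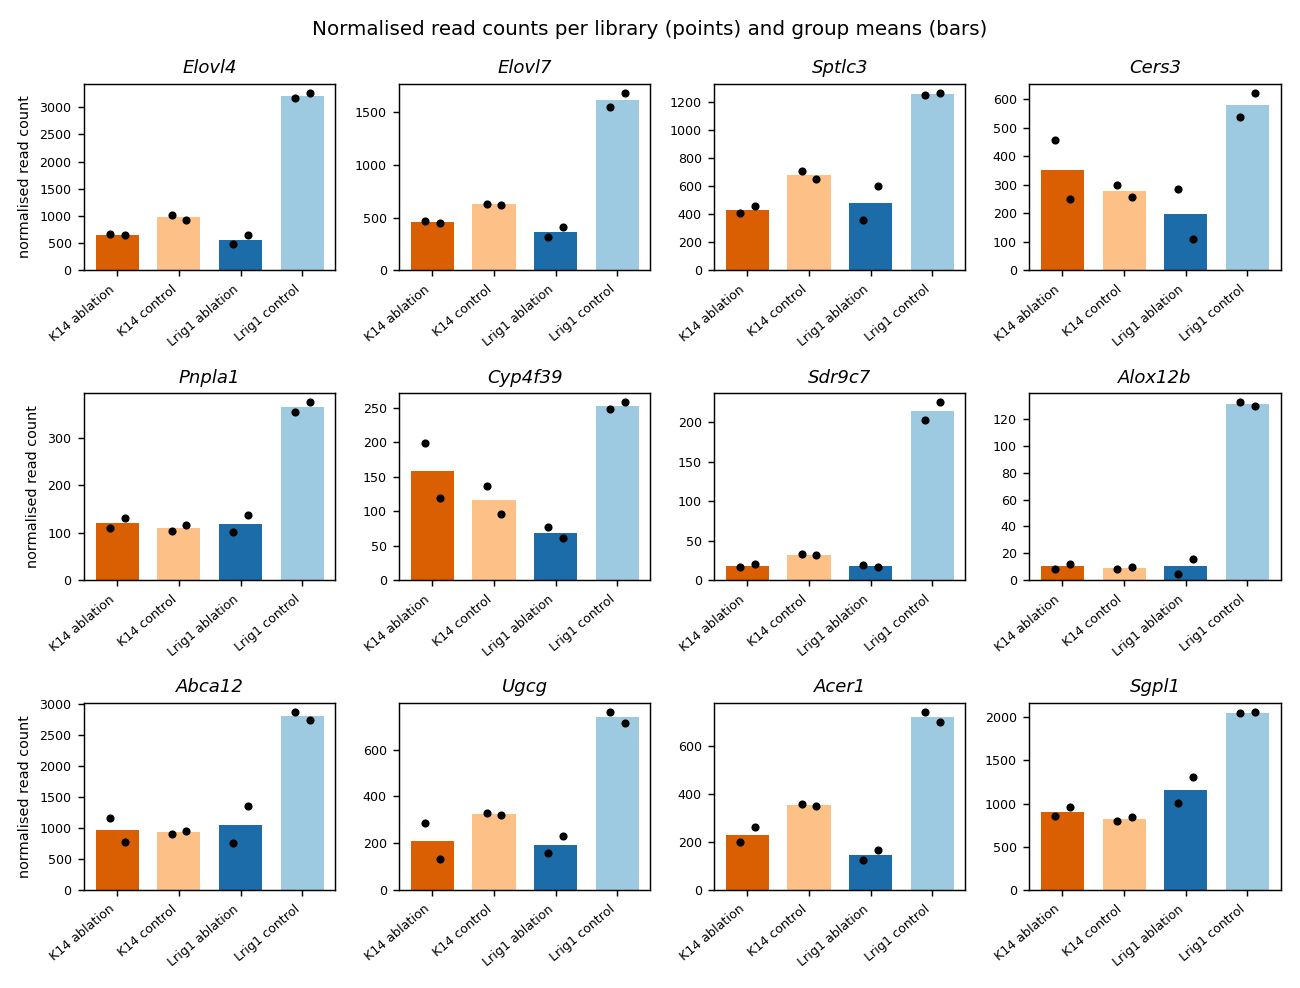
Normalised read counts of 12 of the genes, with points for libraries and bars for means of 2 libraries. The genes were chosen after their values were seen. They leave out fatty acid uptake and activation, ceramide desaturation and hydroxylation, and the sphingomyelin genes. Each panel has its own axis from 0. In all 12 panels both Lrig1 control libraries are above the other 6 libraries, a pattern seen in 19 of the 33 genes, with the opposite in 3; for Elovl4 the 2 Lrig1 ablation libraries are at 478 and 646 and the 2 Lrig1 control libraries at 3162 and 3272.

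In K14 ablation against K14 control no gene of the 33 passed the threshold. With limma 0 of 33 passed, where 0.187% of all tested genes did (0.0992% higher and 0.0882% lower); edgeR on the recovered reads called 0 and DESeq2 1. At an unadjusted p under 0.05, 2 were higher (Elovl1 and Cers6) and 8 lower (Sgms1, Elovl4, Acer1, Sptlc3, Sdr9c7, Elovl7, Aloxe3 and Elovl6), against 6.74% higher and 6.09% lower over all tested genes. The median log2 difference was -0.08 over the 33 genes. Both ablation libraries lay above both controls for 6 genes, below them for 14 and overlapped them for 13, where 27.4% of all tested genes lay above and 25.7% below. The suprabasal and granular markers had a summed level of 100620.0 and 69936 in the K14 ablation libraries and 97049 and 92713 in the K14 control libraries. With limma 0 of the 18 passed, with 1 higher and 7 lower at an unadjusted p under 0.05; 14 of the 18 lay below 0, and their median log2 difference was -0.53. The part of these cells in the values of the lipid genes was not tested. The count of called genes depended on the libraries in the fit: it was 3 without the second K14 ablation library and 4 without either Lrig1 ablation library, all lower.

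The K14 ablation libraries disagreed on a group of lipid genes picked out after their values were seen. Fa2h had 46.0 and 420.2 normalised read counts in the K14 ablation libraries, against 321 and 363 in the K14 control libraries. Elovl6 had 544 and 1371 in the K14 ablation libraries, against 1556 and 1564 in the K14 control libraries. Cers4 had 550.5 and 1796 in the K14 ablation libraries, against 1863 and 1851 in the K14 control libraries. In all 3 the first ablation library was low and the second near the controls, while Ugcg was higher in the first. The ratio of the higher to the lower library exceeded 2 for 5 of the 33 genes in K14 ablation, for 2 in Lrig1 ablation, for 1 in Lrig1 control and for 0 in K14 control. Over 10 sebaceous gland markers the summed level was 936 and 5276 in the K14 ablation libraries and 3958 and 3772 in the K14 control libraries; the part of sebaceous cells in these values was not tested.

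The 2 ablation effects were then compared directly, as the Lrig1 effect minus the K14 effect. The difference passed for 3 of the 33 genes, all lower, and for 0.198% of all tested genes (0.187% lower and 0.011% higher). It was -1.96 ± 0.23 for Elovl4 (adjusted p = 0.0401), -1.71 ± 0.23 for Elovl7 (adjusted p = 0.0401) and -2.75 ± 0.39 for Sdr9c7 (adjusted p = 0.0475) on the log2 scale, by limma over all tested genes. Just outside lay Acer1 at -1.68 ± 0.28 and Pnpla1 at -1.76 ± 0.30 (adjusted p = 0.0652 and 0.0652). Alox12b had the largest difference of the 33, -3.93 ± 0.76, and did not pass (adjusted p = 0.0801). At an unadjusted p under 0.05, 17 of the 33 were lower and 0 higher, against 9.5% lower and 5.49% higher over all tested genes, and the median was -0.77 against -0.03 over all tested genes. For the other 30 genes the effects were not shown to differ. None of the 3 calls held without any 1 of the 4 control libraries, each of which left 0 genes called, while 14 were called without the first Lrig1 ablation library and 10 without the second.

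The control groups themselves differed. In Lrig1 control against K14 control 11 of the 33 genes were higher and 0 lower, where 8.79% of all tested genes passed, 6.52% higher and 2.27% lower. They were Elovl4 (1.73 ± 0.17 on the log2 scale), Sdr9c7 (2.71 ± 0.27), Elovl7 (1.37 ± 0.16), Pnpla1 (1.73 ± 0.21), Sgpl1 (1.33 ± 0.16), Alox12b (3.73 ± 0.54), Abca12 (1.59 ± 0.28), Acer1 (1.03 ± 0.20), Elovl1 (0.75 ± 0.16), Sptlc3 (0.89 ± 0.23) and Cyp4f39 (1.13 ± 0.29). The calls of Sptlc3 and Cyp4f39 were lost in 12 and 9 of 18 alternative analyses. Adjusted p ran from 0.00302 for Elovl4 to 0.0498 for Cyp4f39, the gene just inside the threshold, and Slc27a4 lay just outside (0.90 ± 0.23, adjusted p = 0.051). Cers6 and Cers5 lay lower in Lrig1 control, at -0.59 ± 0.16 and -0.44 ± 0.17, and did not pass (adjusted p = 0.0546 and 0.157). At an unadjusted p under 0.05, 16 were higher and 2 lower, against 14% higher and 10.4% lower over all tested genes. Both Lrig1 control libraries lay above both K14 control libraries for 22 genes and below for 6, against 34.5% above and 34.4% below over all tested genes, and the median log2 difference was 0.66 over the 33 genes. This comparison and that of Lrig1 ablation with its control share the 2 Lrig1 control libraries, so they are not independent of each other.

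Beside the lipid genes, 10 of 18 suprabasal and granular markers, 4 of 6 upper hair follicle markers, 5 of 8 tested hair shaft and root sheath markers, 5 of 6 endothelial markers, 4 of 7 tested myeloid and Langerhans cell markers and 3 of 5 tested fibroblast markers were higher in Lrig1 control than in K14 control, as were 2 of 6 epithelial and 1 of 4 tested melanocyte markers. Of the 9 tested sebaceous gland markers and the 2 tested T cell markers 0 passed with limma. At an unadjusted p under 0.05, both T cell markers were lower, with a median log2 difference of -1.67. At the same threshold 2 sebaceous gland markers were lower and 1 higher. Of the 8 basal keratinocyte markers 1 was higher and 0 lower with limma, but 7 lay below 0, 5 of them lower at an unadjusted p under 0.05, and the median log2 difference was -0.90. The summed endothelial level was 49.7 and 125 for Lrig1 ablation and 887 and 969.8 for Lrig1 control, against 99.1 and 52.5 in the K14 ablation libraries and 82.3 and 68.9 in the K14 control libraries. Sele was at 0 in both Lrig1 ablation libraries and Kdr in both K14 control libraries. The upper hair follicle sum was 11218 and 31685 in the Lrig1 ablation libraries, against 57587 and 61070.1 in the Lrig1 control libraries, and the basal keratinocyte sum was 210766 and 91500.4 in Lrig1 ablation, against 107799 and 117308 in Lrig1 control; it was 216615 and 207871 in K14 ablation and 181696 and 178902 in K14 control. In Lrig1 ablation against its control 5 of 6 endothelial, 5 of 8 tested hair shaft and root sheath and 1 of 7 tested myeloid markers were lower. Over all tested genes 3.3% were lower and 0.766% higher. All 7 myeloid markers were lower at an unadjusted p under 0.05 with limma, with a median log2 difference of -2.32. Of the 6 upper hair follicle markers 1 was higher, but the other 5 lay below 0, 2 of them lower at an unadjusted p under 0.05, and the median was -1.44. All 8 basal keratinocyte markers lay above 0, with a median log2 difference of 0.46. With limma 0 of them passed and 2 were higher at an unadjusted p under 0.05. Of the 6 epithelial markers 0 passed, 4 were lower at that unadjusted threshold and 2 lay above 0, with a median of -0.76. The part of these cell types, and of the mitochondrial share, in the values of the lipid genes was not tested. Without either Lrig1 control library 0 of the 33 lipid genes passed, without either K14 control library 2, and without either Lrig1 ablation library 19 (18 higher and 1 lower).

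**Figure D5:**
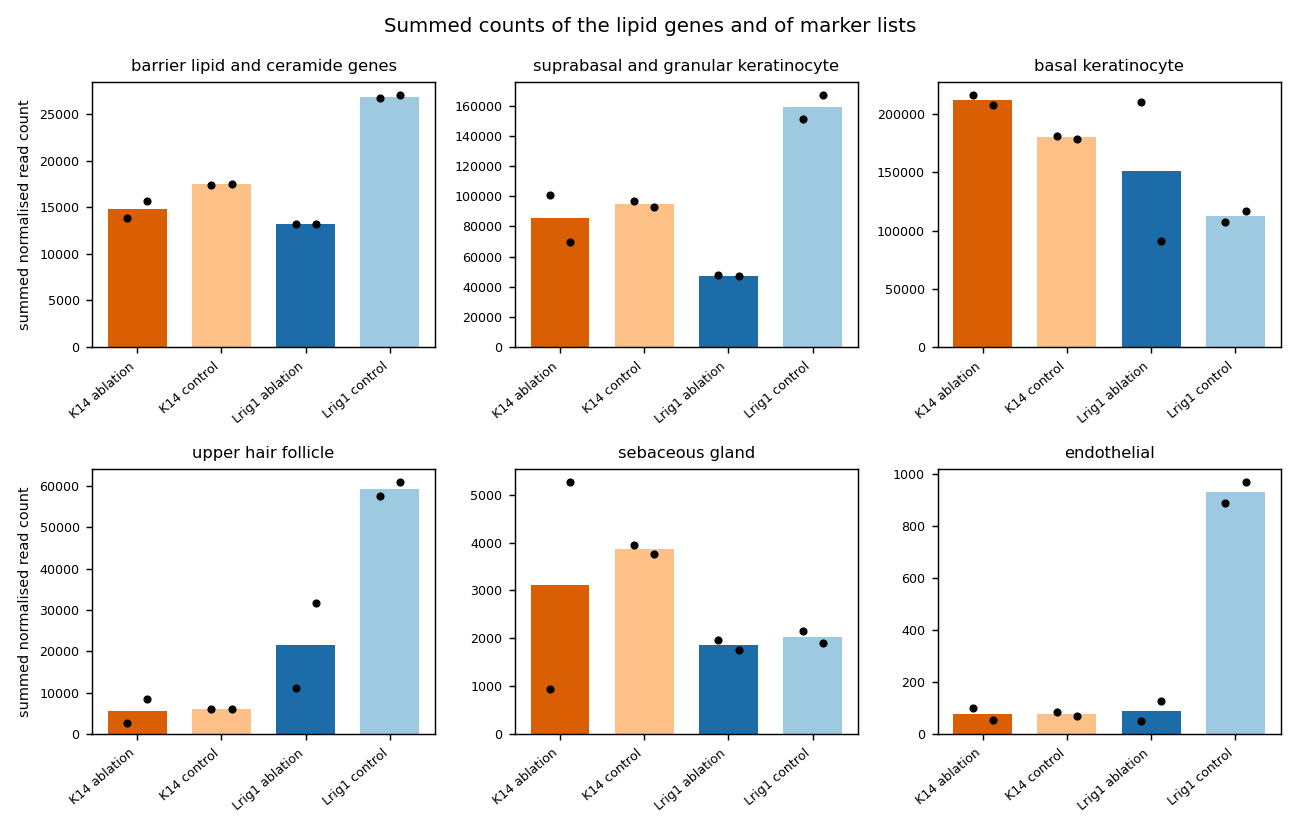
Summed normalised read counts of the 33 barrier lipid and ceramide genes and of 5 marker lists, with points for libraries and bars for means of 2 libraries, each axis from 0. The lipid genes and the suprabasal and granular markers are highest in Lrig1 control and lowest in Lrig1 ablation; endothelial markers are high in Lrig1 control, at 887 and 969.8, and low in the other 3 groups.

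In Lrig1 ablation against K14 ablation no gene of the 33 passed the threshold, where 0.667% of all tested genes passed (0.463% higher and 0.204% lower). With limma 0 passed, with edgeR 0 and with DESeq2 2. At an unadjusted p under 0.05, Sgms2 was higher and Cyp4f39, Acer1 and Cers6 were lower, against 8.1% higher and 8.27% lower over all tested genes. Sgms2 differed by 1.28 ± 0.30 on the log2 scale (adjusted p = 0.114), with every Lrig1 ablation library above every K14 ablation library. Cyp4f39 differed by -1.16 ± 0.29 (adjusted p = 0.132). Both Lrig1 ablation libraries were above both K14 ablation libraries for 3 genes and below for 11, and 19 overlapped, where 19% of all tested genes lay above and 20% below. The 5 genes with the largest differences between the controls had log2 differences here of -0.20 ± 0.54 for Alox12b, -0.04 ± 0.27 for Sdr9c7, -0.03 ± 0.21 for Pnpla1, -0.24 ± 0.17 for Elovl4 and 0.10 ± 0.28 for Abca12. The count depended on the libraries in the fit: without the first Lrig1 ablation library 8 genes passed, 3 higher and 5 lower, and without either K14 ablation library 2.

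Of a further 49 genes of sphingolipid and barrier lipid metabolism, 48 were measured and 44 tested. In Lrig1 ablation 7 were lower and 0 higher than in Lrig1 control, with a median log2 difference of -0.34; over all tested genes 3.3% were lower and 0.766% higher. The 6 with the smallest adjusted p were Acsl1, an acyl-CoA synthetase (log2 difference -1.24 ± 0.19, adjusted p = 0.0156); Ephx3, an epoxide hydrolase of the oxidised linoleate (log2 difference -1.85 ± 0.29, adjusted p = 0.0156); Sult2b1, the sulfotransferase that makes cholesterol sulfate (log2 difference -1.47 ± 0.25, adjusted p = 0.0216); Sgpp1, a phosphatase of sphingosine phosphate (log2 difference -0.89 ± 0.16, adjusted p = 0.0258); Elovl5, an elongase of polyunsaturated fatty acids (log2 difference -0.71 ± 0.15, adjusted p = 0.0431); and Nipal4, whose human counterpart is mutated in ichthyosis (log2 difference -1.09 ± 0.24, adjusted p = 0.0483). Ephx3 averaged 51.7 ± 19.2 normalised read counts in Lrig1 ablation and 184 ± 26.6 in Lrig1 control, and Sult2b1 87.7 ± 0.981 in Lrig1 ablation and 245 ± 7.53 in Lrig1 control (SD, n = 2 each). In K14 ablation 1 of the 44 passed, against 0.187% of all tested genes: Acsl3, another acyl-CoA synthetase, was lower (log2 difference -1.21 ± 0.15, adjusted p = 0.0305), at 494 ± 79.4 against 1137 ± 18.9 in K14 control. In Lrig1 control against K14 control 8 were higher, with Sgpp1, Ephx3, Nipal4, Lipk and Slc27a6 having the smallest adjusted p, and 1, Acsl3, was lower, against 6.52% higher and 2.27% lower over all tested genes. In the difference of ablation effects and between the ablation groups 0 of the 44 passed with limma. At an unadjusted p under 0.05, 11 were lower and 5 higher for the difference, against 9.5% lower and 5.49% higher over all tested genes, and 8 lower and 4 higher between the ablation groups, against 8.27% lower and 8.1% higher. Counts by edgeR and DESeq2 were not taken for this list.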

How the data were processed

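RNA was sequenced from 8 libraries of sorted epidermal cells, 2 for each of 4 groups taken from the sample titles. Per the submitters' processing notes, Trimmomatic, STAR, Picard and HTSeq 0.11.1 were used on GRCm38 (mm10); their settings, the strand and the annotation are not stated there, so reads of overlapping or antisense genes cannot be told apart. The deposited table holds a normalised signal per gene and library: in every library 100% of values were whole multiples of 1 step within 0.001, that is, read counts divided by a size factor by the authors. Columns of the ablation libraries are named in other words than the titles and were matched because no other group was left. Replicates were matched by number. The column of the first K14 ablation library carries a longer number than its title, and the first digit was read as the replicate.

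Tests used limma 3.58.1 (R 4.3.3) with a trended prior variance on log2(normalised read count + 1), which understates changes of low genes. There was 1 fit of 4 group means over 8 libraries, with 4 residual and 4.13 prior degrees of freedom. A gene was tested where 2 or more libraries held it at 1e-06 or more of their total. P-values were Benjamini-Hochberg adjusted over all 18140 tested genes, with a threshold of 0.05, and 5 comparisons were made. Alternatives were another pseudocount, other filters, edgeR 4.0.16 (quasi-likelihood) and DESeq2 1.42.0 on the recovered reads, TMM scaling, fits of the groups compared only, library weights, a replicate block, and leaving out each library. The fit was also run on simulated counts with the same spread in all groups, which does not cover the unequal spread of the groups here. Reads without molecular identifiers are not independent molecules, so the floor of 3 reads covers counting error only. Coordinates and exon lengths came from GENCODE M21. The genes, lists and comparisons were chosen with earlier results of these data known. By rule, full values are given for genes past the threshold, up to 8 with the smallest adjusted p a comparison, and for the gene of each role with the highest level per kb; values of the other called genes and of those near the threshold were added.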

Additional observations from a re-analysis of the deposited data

Results flagged for a closer look

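For 3 genes the effect of ablation differed between the Lrig1 and K14 groups by the test of the difference itself (limma, adjusted over all tested genes). The difference, Lrig1 effect minus K14 effect, was -1.96 ± 0.23 on the log2 scale for Elovl4, -1.71 ± 0.23 for Elovl7 and -2.75 ± 0.39 for Sdr9c7. These calls were lost in 8 (Elovl4), 9 (Elovl7) and 9 (Sdr9c7) of 17 alternative analyses, among them a pseudocount of 0.1, no filter, a stricter filter, the replicate block and leaving out any 1 control library. The K14 effect alone passed for none of the 3 (adjusted p = 0.248, 0.322 and 0.316). The 2 control groups also differed for these genes, by 1.73 ± 0.17, 1.37 ± 0.16 and 2.71 ± 0.27, while the differences between the ablation groups were -0.24 ± 0.17, -0.34 ± 0.16 and -0.04 ± 0.27 on the same scale and did not pass. What sets the level in Lrig1 control apart was not tested.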

How the results depend on the processing

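Counts of called genes among the 33 are given for each comparison, against the value in the report. In K14 ablation (0) DESeq2 gave 1 and library weights 2. In Lrig1 ablation (15) a fit of the 2 groups alone gave 7, and each other alternative except leaving out a library gave 13 to 17. For the difference of effects (3) a pseudocount of 0.1, no filter, a stricter filter and the replicate block each gave 0, DESeq2 9 and library weights 6. In Lrig1 control against K14 control (11) a fit of the 2 groups alone gave 25 and library weights 21. Between the ablation groups (0) DESeq2 gave 2. Leaving out 1 library at a time gave 0 to 4 in K14 ablation, 1 to 20 in Lrig1 ablation, 0 to 14 for the difference, 0 to 19 between controls and 0 to 8 between ablation groups; where it left 1 library in a group, that library was assumed to vary like the other groups. None of the 29 calls in the 3 comparisons with any changed sign under any alternative. Elovl4 kept its call in Lrig1 ablation under all 18 alternatives, with log2 differences of -2.75 to -2.31 and adjusted p up to 0.0447. The cause of these changes was not tested. A stricter filter dropped 2 of the 33 genes, and the difference of effects cannot be fitted from 2 groups alone.

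The replicate numbers pair no libraries by the labels, and deviations of same-numbered libraries correlated by -0.0491 to 0.0838. With the replicate block the counts were 0, 13, 0, 11 and 0 in the order above. Over all genes the calls were 34 in K14 ablation (0 to 740 over the alternatives), 737 in Lrig1 ablation (5 to 2498), 36 for the difference (0 to 2022), 1594 between controls (1 to 7269) and 121 between ablation groups (0 to 4041); edgeR called 32, 588, 32, 1396 and 135. DESeq2 called 220 genes in K14 ablation, 93 of them higher, against 18 higher of 34. Depth limits Alox12b, Degs2 and Smpd3, whose libraries held as few as 5, 10 and 11 reads.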

Other observations

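Promoter composition was not part of any comparison. Over genes with 1 listed start, the 13 genes lower in Lrig1 ablation had a median of 11 CpG dinucleotides in the 250 bases before the start, ranging from 1 in Sptlc3 to 43 in Ugcg, the 12 others had a median of 13.5, and all 22862 mouse genes with 1 listed start had a median of 5. The lower genes thus span both kinds of window: Elovl4 and Elovl7 have 25 each, and Sdr9c7, Acer1, Pnpla1 and Abca12 have 2, 4, 5 and 5. No relation between CpG count and change was tested.

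Sgms2 lay higher in the Lrig1 group than in the K14 group in every library pair, with and without ablation. Between the ablation groups it averaged 229 ± 99.3 normalised read counts for Lrig1 and 89.2 ± 1.88 for K14, and between the controls 265 ± 2.35 for Lrig1 and 123 ± 27.7 for K14 (SD, n = 2 each). Neither difference passed, at log2 difference 1.28 ± 0.30, adjusted p = 0.114 between the ablation groups and log2 difference 1.12 ± 0.30, adjusted p = 0.0582 between the controls. Sgms2 was picked out after its values were seen. Sgpl1 had the same order in every library pair. Its log2 difference by limma was 0.34 ± 0.16 between the ablation groups (adjusted p = 0.339) and 1.33 ± 0.16 between the controls (adjusted p = 0.00482). Over all tested genes both Lrig1 libraries lay above both K14 libraries for 19% between the ablation groups and for 34.5% between the controls.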
